A study of Mus musculus with 6 samples.

Results

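The nuclear genes that encode the proteins of the mitochondrial ribosome were compared between liver natural killer (NK) cells of metformin-treated and control mice. Members were the protein-coding genes whose symbol begins with Mrpl or Mrps followed by a digit, which gave 78 of the 55414 genes in the deposited table. Of these, 49 carry the large-subunit name Mrpl and 29 the small-subunit name Mrps. Messenger RNA had been sequenced in 6 bulk libraries from wild-type (WT) mice, all labelled day 3. The Metformin group held 3 libraries from mice given metformin at 200 mg per kg for 3 days, and the PBS group held 3 control libraries from mice given phosphate-buffered saline. Nothing in the labels states whether each library is from its own mouse, and the p-values therefore rest on a spread between libraries that may be technical. In bulk libraries, fewer cells of a type and less RNA per cell cannot be told apart.

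Mitochondria keep ribosomes of their own, built from ribosomal RNAs that the mitochondrial genome encodes and from proteins that are encoded in the nucleus, made in the cytosol and imported. These ribosomes translate only the few messages of the mitochondrial genome, all of which encode subunits of the respiratory chain and ATP synthase. The large subunit joins amino acids at the peptidyl transferase centre and releases the chain through a tunnel, and the small subunit decodes the message. Metformin is a glucose-lowering drug known to inhibit respiratory complex I, some of whose subunits are made on these ribosomes.

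Most members were somewhat higher with metformin, the subunits alike, and no single member passed the test over all genes. The log2 fold change, metformin over PBS, was above 0 in 67 of 78 members, that is in 41 of 49 large-subunit and 26 of 29 small-subunit genes, against 50.9% of the 15527 genes tested. Its median was 0.15 over large-subunit members and 0.17 over small-subunit members, against 0.0053 over all genes tested and -0.024 over protein-coding genes. Genes with short transcripts in general were also mostly higher, members with transcripts under 1500 bases had medians close to those of other genes of that length, and most of the difference lay in the third metformin library.

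The libraries held 22983788, 24266803 and 22152167 estimated reads in Metformin 1, 2 and 3 and 27263681, 24838302 and 30161214 in PBS 1, 2 and 3. Members took 0.279%, 0.275% and 0.347% of these reads in Metformin 1, 2 and 3, against 0.275%, 0.268% and 0.256% in PBS 1, 2 and 3. All 78 members passed the filter on low counts, and the lowest member count in any library was 130.41 reads, for Mrpl23 in Metformin 3. All 12 NK cell markers were present in every library, which does not show that every cell was an NK cell. The lowest value was 90.9 TPM (a level scaled for transcript length and library size), for the transcription factor Eomes. The highest was 12153 TPM, for the granule protease Gzma. Markers of other cells also differed between libraries. Summed over 11 genes, T cell markers were at 1478, 1329 and 1634 CPM (reads scaled to library size, not to length) in Metformin 1, 2 and 3, against 826, 963 and 929 CPM in PBS 1, 2 and 3. The 17 hepatocyte markers summed to 725 CPM in Metformin 3 and to 257 to 399 CPM in the other 5 libraries, and the 11 macrophage and monocyte markers to 683 CPM in Metformin 3 and 237 to 401 CPM elsewhere. A list of 20 cell cycle genes summed to 860 to 1037 CPM with metformin and 1113 to 1621 CPM with PBS. B cell markers summed to 541 to 793 CPM with metformin and 340 to 601 CPM with PBS, and the neutrophil, endothelial and erythroid lists to at most 166 CPM in any library. In none of these lists was a gene at 0 in all libraries, and the part of these differences in the results on members was not tested.

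In edgeR's quasi-likelihood test, adjusted over all genes by Benjamini and Hochberg, 0 of 78 members were higher and 0 lower, against 0% of all genes in either direction. At an unadjusted p under 0.05, 14 members were higher (9 large, 5 small) and 0 lower, where 5.29% of all genes were higher and 5.08% lower. In 20 members (12 large, 8 small) the metformin libraries all lay above the PBS libraries, and in 0 members all lay below, against 9.49% and 9.63% of all genes. DESeq2 called 1 member, Mrpl14, where it called 1.93% of all genes, and gave 12 members higher at an unadjusted p under 0.05, against 5.26% of all genes.

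Of the large-subunit proteins, Mrpl14 had the smallest p. It is the mitochondrial relative of bacterial ribosomal protein L14, at the face that meets the small subunit, and lies on chromosome 17 at 45997248 to 46009421 in the table's coordinates (the table names no build), on the plus strand. It had 22.02, 21.6 and 21.2 CPM in Metformin 1, 2 and 3, against 15.2, 15.4 and 15.2 CPM in PBS 1, 2 and 3. The groups were well apart and each was tight, and Metformin 3 was the lowest of the metformin libraries here, unlike in most members. The log2 fold change was 0.50 (SE 0.12), with an adjusted p of 0.292 in edgeR and 0.038 in DESeq2, and the adjusted p ran from 0.038 to 0.735 over all settings tried.

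Mrpl52, a large-subunit protein with no bacterial counterpart, had 21.9, 22.99 and 29.2 CPM with metformin and 17.3, 16.3 and 16.5 CPM with PBS, a log2 fold change of 0.56 (SE 0.15). Mrpl27, relative of a bacterial protein that reaches towards the peptidyl transferase centre, had 28.4, 28.8 and 42.2 CPM with metformin and 22.7, 21.9 and 24.99 CPM with PBS, a log2 fold change of 0.51 (SE 0.17). In both genes the groups did not overlap and Metformin 3 stood well above Metformin 1 and 2. Without Metformin 3 their log2 fold changes were 0.42 and 0.29. Mrpl1, relative of the bacterial protein that forms the mobile L1 stalk, differed in this respect, with 26.4, 22.9 and 25.3 CPM with metformin and 18.3, 19.7 and 20.01 CPM with PBS. Its log2 fold change was 0.36 (SE 0.12) with all libraries and 0.34 without Metformin 3.

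Among small-subunit proteins, Mrps21, relative of bacterial S21, had 52.0, 41.5 and 61.5 CPM with metformin, against 39.2, 36.9 and 36.5 CPM with PBS, a log2 fold change of 0.46 (SE 0.15). Mrps24, relative of bacterial S3 in the head of the subunit, had 55.3, 48.0 and 63.8 CPM with metformin and 46.7, 41.2 and 39.8 CPM with PBS, a log2 fold change of 0.39. In each of these genes the lowest metformin library lay only slightly above the highest PBS library. Mrps35, a protein particular to mitochondria, had 27.8, 29.4 and 33.9 CPM with metformin and 24.1, 24.3 and 22.8 CPM with PBS, a log2 fold change of 0.35. Its groups did not overlap either.

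The 3 mouse genes related to bacterial S18 were each above 0 in this fit. Mrps18c, the form in the small subunit at the place of bacterial S18, had 30.6, 27.8 and 33.3 CPM with metformin and 23.7, 25.5 and 23.1 CPM with PBS, a log2 fold change of 0.34. Mrps18b, also in the small subunit, had a log2 fold change of 0.12 (SE 0.13) with groups that overlapped. Mrps18a, which structures place in the large subunit in spite of its name, had a log2 fold change of 0.18 (SE 0.11), and its groups did not overlap.

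The members on the other side of 0 differed less. The lowest was Mrps27, a small-subunit protein of the RNA-binding pentatricopeptide repeat family, with 18.5, 21.7 and 21.03 CPM in Metformin 1, 2 and 3 and 24.2, 23.8 and 21.2 CPM in PBS 1, 2 and 3. Its log2 fold change was -0.18 (SE 0.13), the groups overlapped, and no other member was further below 0. Mrps9, relative of bacterial S9, followed in the small subunit at -0.12 (SE 0.11), with 27.4, 28.1 and 24.7 CPM with metformin and 30.04, 29.1 and 27.9 CPM with PBS. In the large subunit, Mrpl49 was at -0.15 (SE 0.13), Mrpl23 at -0.15 (SE 0.21), Mrpl12 at -0.079, Mrpl9 at -0.059, Mrpl24 at -0.046 and Mrpl3 at -0.033. All of these groups overlapped between metformin and PBS.

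**Figure D1:**
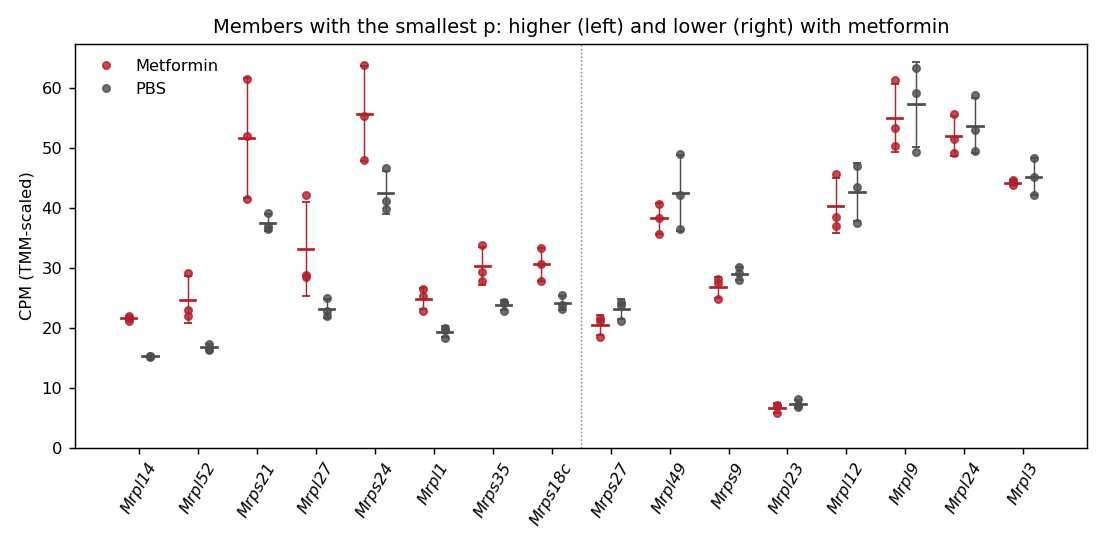
CPM of the 8 members with the smallest p on either side of 0, in each library (points), with the group mean (bar) and SD (error line), n = 3 per group. Mrpl14 is at 21.2 to 22.02 CPM with metformin and 15.2 to 15.4 CPM with PBS, while in Mrpl23, at 5.70 to 7.05 CPM with metformin and 6.70 to 8.04 CPM with PBS, the groups overlap.

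Ordered by place in the ribosome, each part held few proteins, and the tunnel exit had the lowest median. The stalk that recruits translation factors includes Mrpl10, Mrpl11 and Mrpl12, with log2 fold changes of 0.15, 0.13 and -0.079 and SEs of 0.13, 0.15 and 0.13. Mrpl12 is also known, in human cells, to bind the mitochondrial RNA polymerase. The median over 5 stalk proteins was 0.15. At the exit of the tunnel, where new chains meet the inner membrane, the median over 6 proteins was 0.076, and Mrpl45, which anchors the ribosome to that membrane, had 23.0, 30.1 and 30.5 CPM with metformin and 30.3, 26.8 and 26.4 CPM with PBS, a log2 fold change of 0.0010 (SE 0.14). The median over 4 proteins near the peptidyl transferase centre was 0.14, with 2 of the 4 above 0. In the small subunit, Mrps12, which lies at the decoding centre, had a log2 fold change of 0.25 (SE 0.14) with overlapping groups. Mrpl58, which frees stalled chains as a peptidyl-tRNA hydrolase, was at 0.22 (SE 0.13), with 59.7, 53.9 and 73.7 CPM with metformin and 51.8, 56.4 and 52.8 CPM with PBS. Transcript length is taken into account in fits described below. There, with Gene Length, the medians of stalk, tunnel exit and peptidyl transferase centre were 0.045, -0.058 and 0.066. With the implied length they were 0.0013, -0.069 and 0.015. Whether the parts differ was not tested.

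Proteins with bacterial relatives and proteins found only in mitochondria had like medians in the fit without length offsets. By structure, in the large subunit the median was 0.18 over 20 proteins particular to mitochondria and 0.15 over 31 with a bacterial relative. In the small subunit it was 0.15 over 10 and 0.16 over 16. Above 0 were 19 of 20 and 24 of 31 in the large subunit, and 8 of 10 and 15 of 16 in the small. With offsets on the implied length, described below, the medians were 0.064 and -0.030 in the large subunit. They were -0.018 and 0.0065 in the small subunit. Mrps18b, although related to bacterial S18, was counted among those particular to mitochondria, and Mrps18a and Mrps18c among those with a bacterial relative. A few names do not match the place of the protein: structures put Mrps18a and Mrps30 in the large subunit, and Mrps36 is known as a part of the 2-oxoglutarate dehydrogenase complex. Mrps30 had a log2 fold change of 0.085 (SE 0.11) and Mrps36 one of 0.17 (SE 0.17). With members sorted by structure, 51 in the large and 26 in the small subunit, the medians were 0.15 and 0.16.

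The subunits moved together across libraries, and the third metformin library carried most of the difference. For each gene, log2(CPM + 0.5) was taken relative to its mean over the 6 libraries. The median over the 49 large-subunit members was -0.013, -0.0099 and 0.25 in Metformin 1, 2 and 3, against -0.031, -0.039 and -0.14 in PBS 1, 2 and 3. Over the 29 small-subunit members it was -0.00032, -0.014 and 0.25 in Metformin 1, 2 and 3, against -0.025, -0.061 and -0.15 in PBS 1, 2 and 3. Metformin 1 and 2 thus lay close to PBS 1 and 2, and Metformin 3 was high and PBS 3 low in both subunits. Metformin 3 was the highest library in 61 of 78 members and PBS 3 the lowest in 42. The group means of these library medians were 0.076 ± 0.15 for metformin and -0.070 ± 0.060 for PBS in the large subunit, and 0.079 ± 0.15 for metformin and -0.078 ± 0.063 for PBS in the small subunit (SD, n = 3 each).

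**Figure D2:**
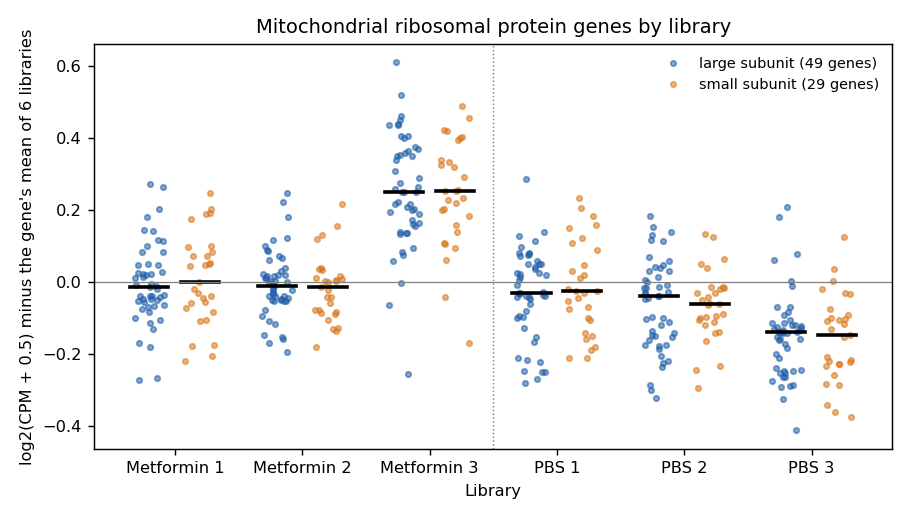
Each point is 1 member in 1 library, as log2(CPM + 0.5) minus that gene's mean over the 6 libraries, for the large (49 genes) and small (29 genes) subunit, with the median as a bar. Metformin 3 is at 0.25 in both subunits, and the medians of the other 5 libraries are between -0.15 and 0.

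With Metformin 3 left out, the median log2 fold change was 0.043 in the large and 0.056 in the small subunit. Of the 78 members 54 were then above 0, against 49.5% of all genes, and 6 were higher and 0 lower at an unadjusted p under 0.05, against 4.9% and 6.51% of all genes. With the adjusted p, 0 members passed in edgeR, against 0.00623% of all genes. The groups did not overlap in 21 members, 20 higher and 1 lower, where with this smaller comparison 15.1% of all genes were higher and 14.6% lower. The difference between the subunits was small with or without this library: the large-subunit median minus the small-subunit median was -0.015 with it and -0.013 without it. Within a library, the large-subunit median deviation minus the small-subunit one was -0.0037 ± 0.0087 with metformin and 0.0083 ± 0.014 with PBS (SD, n = 3 each), and the groups overlapped.

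Levels per length gave a like balance of the subunits. The deposited TPM values summed over large-subunit members were 3582, 3695 and 4266 in Metformin 1, 2 and 3, against 3704, 3812 and 3621 in PBS 1, 2 and 3. Over small-subunit members the TPM sums were 2026, 2013 and 2324 in Metformin 1, 2 and 3, against 2042, 2039 and 1968 in PBS 1, 2 and 3. Metformin 3 lay above the PBS libraries in both sums. Metformin 1 lay below all of them in the large-subunit sum, and Metformin 2 in that sum and both libraries in the small-subunit sum fell among them. The ratio of the small-subunit to the large-subunit TPM sum was 0.552 ± 0.012 with metformin and 0.543 ± 0.0082 with PBS (SD, n = 3 each), so the groups overlapped.

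Single members differed more from each other in level than between groups. By mean TPM over the 6 libraries the highest were Mrpl33, at 348 TPM, and Mrps21, at 291 TPM. The lowest were Mrpl47, at 13.9 TPM, and Mrpl1, at 14.7 TPM. Mrpl33, relative of the small bacterial protein L33, had 67.5, 72.9 and 85.9 CPM with metformin and 71.1, 66.7 and 66.3 CPM with PBS, a log2 fold change of 0.15 (SE 0.11). Mrpl47, at the tunnel exit, had 12.7, 12.9 and 16.1 CPM with metformin and 13.6, 11.7 and 12.03 CPM with PBS, a log2 fold change of 0.16 (SE 0.17).

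Mitochondrial ribosomal proteins are small, and transcript length was therefore set beside each fold change. Length was measured in 2 ways. The deposited Gene Length had a median of 1866.5 bases over members, against 3318 bases over the 12921 protein-coding genes tested. It equals the longest transcript of the gene in the GENCODE M21 annotation for 78 of 78 members. In 23 members that longest transcript is not a coding one but carries a retained intron (18 members), is a processed transcript (3) or is marked for nonsense-mediated decay (2). The second measure was the length implied by the deposited counts and TPM together. It was assumed to reflect the transcripts that the authors' counting assigned reads to in each library. Its median was 1055 bases over members (1130 in the large and 969 in the small subunit) and 2375 bases over protein-coding genes. Gene Length was over 1.5 times the implied length in 35 of 78 members. The most extreme was Mrpl17, a tunnel-exit protein with a Gene Length of 7300 bases and an implied length of 807 bases, with a log2 fold change of 0.15 (SE 0.13). Mrps25, a small-subunit protein, had a Gene Length of 6073 bases, an implied length of 1642 bases and a log2 fold change of 0.25 (SE 0.12).

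Short genes in general were mostly higher with metformin. Of the 1152 protein-coding genes tested with an implied length under 1000 bases, 83.4% had a log2 fold change above 0 and the median was 0.23. Of the 37 members in this class 36 were above 0, with a median of 0.25. The groups did not overlap in 14 of these 37 members, all higher, against 27% of the protein-coding genes, and 12 were higher at an unadjusted p under 0.05, against 18.8%. The other 41 members had a median of 0.098, with 31 above 0 and 2 higher at an unadjusted p under 0.05. By class of implied length, members and protein-coding genes had medians of 0.33 and 0.31 under 750 bases (17 members, 494 genes), 0.19 and 0.17 at 750 to 1000 bases (20 and 658), and 0.067 and 0.098 at 1000 to 1500 bases (24 and 1756). At 1500 to 2500 bases the 14 members had a median of 0.15, where that of the 4022 protein-coding genes was 0.0060, and at 2500 to 4000 bases the 3 members had one of 0.085, where that of the 3829 genes was -0.10. Across the 78 members, Spearman's rho of log2 fold change with length was -0.53 for the implied length and -0.30 for Gene Length, which over protein-coding genes was -0.39 and -0.34. These are correlations across genes from the same 6 libraries, and genes are not independent replicates.

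**Figure D3:**
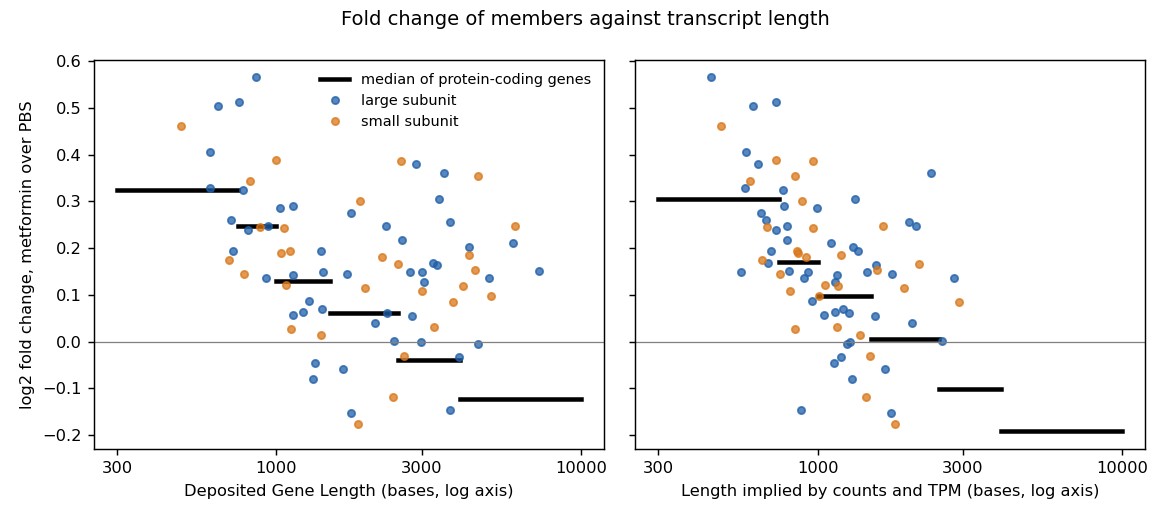
Log2 fold change, metformin over PBS, of the 78 members (points) against deposited Gene Length (left) and the length implied by counts and TPM (right), both on log axes, with the median of all protein-coding genes in each length class (black bars, the last class drawn to the right edge). Under 1000 bases of implied length, 36 of 37 members are above 0. Over 2500 bases of Gene Length the members' median is above that of protein-coding genes, at 0.15 against -0.039 for 2500 to 4000 bases and 0.15 against -0.12 from 4000 bases.

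The library that set the members apart also set short genes apart. In Metformin 1, 2 and 3 the median deviation of protein-coding genes with an implied length under 1000 bases was 0.023, -0.023 and 0.33, against -0.026, -0.12 and -0.16 in PBS 1, 2 and 3. That of genes of 2500 bases and over was 0.017, 0.061 and -0.26 in Metformin 1, 2 and 3, against 0.051, 0.077 and 0.086 in PBS 1, 2 and 3. Metformin 3 was thus highest for short and lowest for long genes, and PBS 3 the reverse.

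Taking length into account in the fit brought the medians towards 0. With per-library offsets that follow a smooth curve of expression on Gene Length, the median log2 fold change was 0.052 in the large and 0.072 in the small subunit, 52 of 78 members were above 0 (50.1% of all genes), and at an unadjusted p under 0.05 9 were higher (4.72% of all genes) and 0 lower (5.47%). The offsets removed the trend over all protein-coding genes (rho 0.0065), but within members rho with Gene Length became 0.54: the 11 members with a Gene Length of 4000 bases and over then had a median of 0.29, while the 7 under 750 bases had one of -0.015 and the 10 of 750 to 1000 bases one of 0.033. With offsets on the implied length, the median was -0.0019 in the large and -0.00041 in the small subunit, 38 of 78 members were above 0 (50.2% of all genes), and at an unadjusted p under 0.05 2 were higher (5.04% of all genes) and 0 lower (5.65%). With the adjusted p in edgeR, 0 members passed with Gene Length offsets (0.00644% of all genes) and 0 with offsets on the implied length (0.0451%). The 2 members were Mrpl1, at 0.40 with an unadjusted p of 0.0089, and Mrpl35, relative of bacterial L35, at 0.25 with an unadjusted p of 0.023. Mrpl35 was singled out after its values were seen. Mrpl14 was at 0.20 in this fit, Mrpl52 at 0.12, Mrpl27 at 0.24 and Mrps21 at 0.037. The median near 0 in this fit did not hold in every class of implied length. The 24 members of 1000 to 1500 bases had a median of -0.044, against -0.0076 in protein-coding genes. The 14 of 1500 to 2500 bases had one of 0.10, against -0.0070, with 10 above 0. The 3 of 2500 to 4000 bases had one of 0.17, against -0.0096. Under 1000 bases the medians were -0.0044 (17 members) and -0.014 (20), against -0.028 and -0.027.

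**Figure D4:**
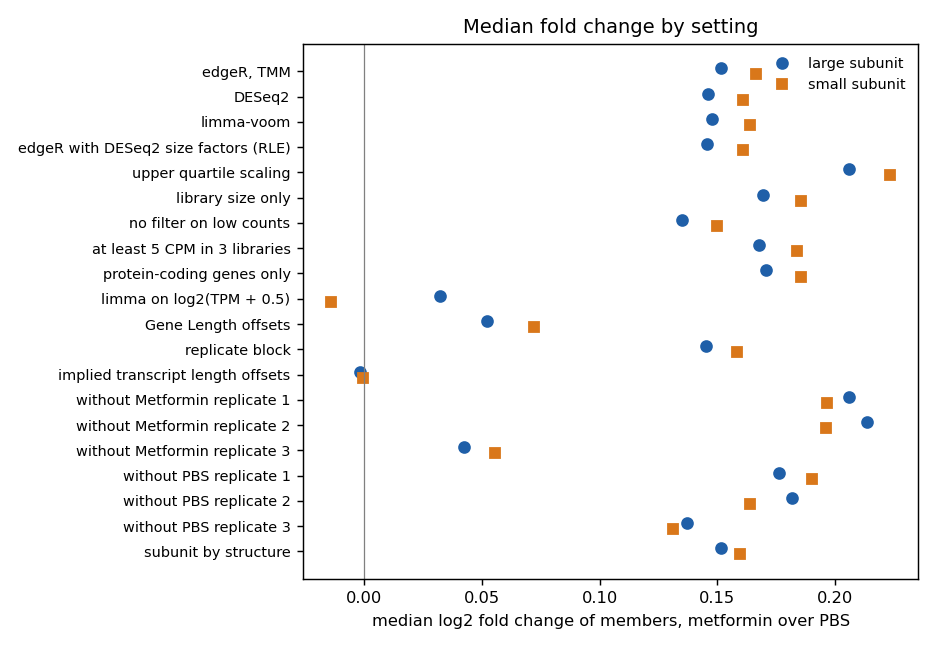
Median log2 fold change, metformin over PBS, over large-subunit (circles) and small-subunit (squares) members, with each way of computing it in a row. The medians are 0.15 and 0.17 in edgeR with TMM scaling, 0.043 and 0.056 without Metformin 3, 0.052 and 0.072 with Gene Length offsets and near 0 with offsets on the implied length.

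The medians of other sets of short genes also moved towards 0 with offsets on length. The 70 cytosolic ribosomal proteins, which make up the ribosome that translates nuclear messages, had a median log2 fold change of 0.22 (68 above 0, 20 higher at an unadjusted p under 0.05). The 37 nuclear subunits of respiratory complex I had one of 0.28 (36 above 0, 15 higher). Of all genes, 50.9% were above 0 and 5.29% higher at that p. Of protein-coding genes with an implied length under 1000 bases, 83.4% were above 0 and 18.8% higher. With offsets on the implied length these medians were -0.070 and 0.0068, and the member median was -0.0012. Which part of the count difference is a change in the cells was not tested.

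For a few members the reads themselves limit what can be said. Mrpl23, a tunnel-exit protein encoded on chromosome 7, has a processed pseudogene, Mrpl23-ps1, on chromosome 2. In GENCODE M21 (GRCm38) the transcripts share an identical run of 540 bases that holds the whole coding part of 441 bases, so reads from it cannot be told apart. The first 180 coding bases, from the start codon in capitals, show this.

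Mrpl23: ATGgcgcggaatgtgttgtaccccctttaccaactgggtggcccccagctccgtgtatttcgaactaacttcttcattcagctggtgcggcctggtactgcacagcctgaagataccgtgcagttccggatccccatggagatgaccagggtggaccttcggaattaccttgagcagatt
Mrpl23-ps1: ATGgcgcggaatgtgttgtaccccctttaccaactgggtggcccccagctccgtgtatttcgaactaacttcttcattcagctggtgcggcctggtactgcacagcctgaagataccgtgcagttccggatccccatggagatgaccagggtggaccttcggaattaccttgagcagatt

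The table assigned 5.70 to 7.05 CPM to Mrpl23 with metformin and 6.70 to 8.04 CPM with PBS. It assigned 25.3, 26.9 and 31.1 CPM to Mrpl23-ps1 in Metformin 1, 2 and 3, against 24.5, 25.5 and 21.5 CPM in PBS 1, 2 and 3. The gene thus held between 15.5% and 27.2% of the sum. The sum was 34.3 ± 2.26 CPM with metformin and 31.1 ± 1.53 CPM with PBS (SD, n = 3 each), a log2 ratio of 0.14, where the log2 fold change of Mrpl23 alone was -0.15. In all, 16 of 78 members share an identical run of at least 100 bases with a gene elsewhere and 7 with an overlapping gene on the same strand, and their counts are uncertain to that extent.

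Mrpl49, a large-subunit protein particular to mitochondria, had a lower mean CPM but a higher mean TPM with metformin. Its TPM was above the PBS libraries in Metformin 3 only and below them in Metformin 1 and 2. It was at 35.6, 40.7 and 38.3 CPM in Metformin 1, 2 and 3, against 49.0, 42.1 and 36.4 CPM in PBS 1, 2 and 3. Its TPM was 31.4, 38.5 and 104.7 in Metformin 1, 2 and 3, against 45.9, 41.1 and 39.9 in PBS 1, 2 and 3. Metformin 3 was the one library in which the values disagreed, and there the implied length was 727 bases, against 1619 to 1767 bases in the other 5 libraries. GENCODE M21 lists transcripts of 1764, 1311, 421 and 146 bases for this gene. The log2 fold change was -0.15 on counts and 0.25 on log2(TPM + 0.5). An implied length that varied by over 1.5 times between libraries was seen in 2 of 78 members.

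**Figure D5:**
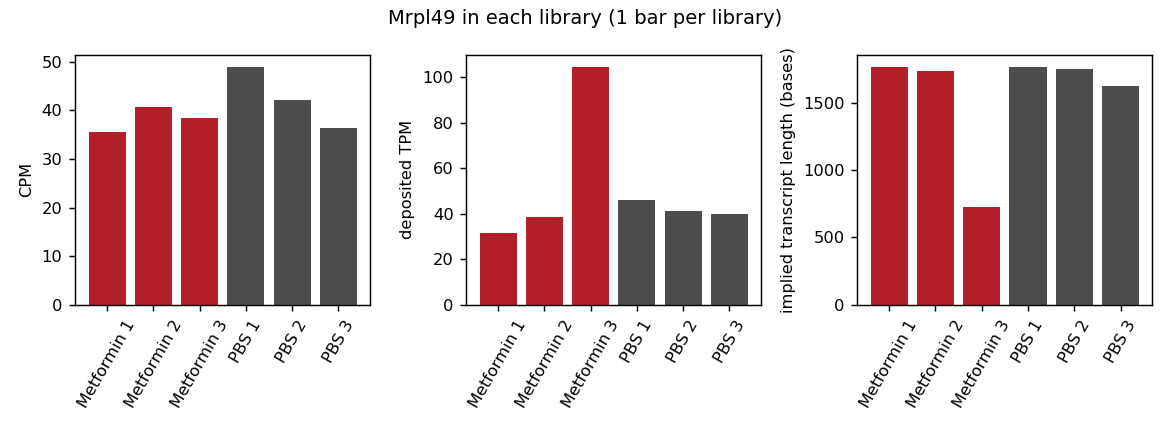
CPM, deposited TPM and implied transcript length of Mrpl49, with 1 bar per library. CPM lies between 35.6 and 49.0, while in Metformin 3 the TPM is 104.7 and the implied length 727 bases.

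Promoters were searched because the transcription factors NRF1 and GABPA, an ETS factor also called NRF2, are known to bind promoters of many nuclear genes for mitochondrial proteins. RefSeq promoter sequences (GRCm38.p6, 250 bases before the start) were found for 69 of 78 members and 17491 protein-coding genes, with the first listed start used for each. The NRF1 core, GCGCA then any base then GCGC, on either strand, was in 10 of 69 member promoters (14.5%; 9 of 43 large-subunit and 1 of 26 small-subunit), against 5.3% of all promoters. The ETS core CCGGAAGT was in 9 of 69 (13.04%), against 3.84%, and the TATA box TATAAA in 4 of 69 (5.8%), against 12.4%. A YY1 core was in 1 of 69, against 0.36%. The median share of G and C was 58.4% in member promoters and 55.2% in all promoters. The NRF1 core is mostly G and C and the TATA box only A and T, and the part of base composition in these counts was not tested. The median log2 fold change was 0.15 over the 10 members with the NRF1 core, 0.19 over the 9 with the ETS core and 0.16 over the 50 with neither. The promoters of Mrps21, among the higher members with the smallest p, and of Mrpl45, near 0, are shown. Both promoters hold the NRF1 core, in capitals here, and were picked by fold change without length offsets. They lie on GRCm38.p6 at chr3:95871515-95871764 (minus strand) for Mrps21 and chr11:97315466-97315715 (plus strand) for Mrpl45.

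Mrps21: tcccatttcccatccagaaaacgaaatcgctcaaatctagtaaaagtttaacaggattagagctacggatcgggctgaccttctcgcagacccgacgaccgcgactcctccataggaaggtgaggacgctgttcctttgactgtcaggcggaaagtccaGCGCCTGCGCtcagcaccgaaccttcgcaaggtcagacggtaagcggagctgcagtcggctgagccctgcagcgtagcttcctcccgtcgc
Mrpl45: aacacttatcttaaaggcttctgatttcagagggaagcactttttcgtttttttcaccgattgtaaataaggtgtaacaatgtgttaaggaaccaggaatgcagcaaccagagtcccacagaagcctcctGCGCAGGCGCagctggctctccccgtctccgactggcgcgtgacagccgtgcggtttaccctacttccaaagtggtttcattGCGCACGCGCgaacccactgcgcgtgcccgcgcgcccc

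Mrps21 holds the core once and Mrpl45 at 2 places. Their log2 fold changes were 0.46 and 0.0010 without length offsets. With Gene Length offsets they were 0.029 and -0.029, and with offsets on the implied length 0.037 and 0.058. A match of letters is a description and not evidence that a factor was bound.

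The rest of the mitochondrial translation machinery was followed in lists of known components. Of the 5 proteins of the ribosome that carry other names, 1 had an unadjusted p under 0.05, the small-subunit protein Aurkaip1. It had 67.0, 72.0 and 78.9 CPM with metformin and 60.6, 62.4 and 58.5 CPM with PBS, a log2 fold change of 0.26 (SE 0.10). Gadd45gip1 was at 0.26 (SE 0.13), Chchd1 at 0.24 (SE 0.14), Ptcd3 at -0.059 (SE 0.088) and Dap3, a GTP-binding small-subunit protein, at -0.095 (SE 0.11). Of 29 assembly and ribosomal RNA modification factors, 20 were above 0 with a median of 0.053. The smallest p on either side belonged to Eral1, which binds the small-subunit ribosomal RNA, at 0.32 (SE 0.12), and Fastkd2, which helps assemble the large subunit, at -0.31 (SE 0.13). In both the groups did not overlap.

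The 16 genes listed under translation, which are not all translation factors, had a median of -0.026. They include Slirp, which binds mitochondrial messages, at 0.42 (SE 0.15) and the elongation factor Gfm1 at -0.31 (SE 0.17). The 20 aminoacyl-tRNA synthetases had a median of -0.013. Lars2, which charges leucine tRNA, had 401, 374 and 721 CPM with metformin and 392, 378 and 380 CPM with PBS, and its log2 fold change was 0.38 (SE 0.23) with all libraries and 0.0069 without Metformin 3. Nars2, the asparagine enzyme, was at -0.35 (SE 0.17). The 10 genes of mitochondrial transcription and DNA upkeep had a median of -0.010, with Ssbp1, which coats single-stranded mitochondrial DNA, at 0.25 (SE 0.12) and the topoisomerase Top1mt at -0.36 (SE 0.16). The 10 regulators of mitochondrial biogenesis had one of -0.15, with the transcription factor Myc at 0.19 (SE 0.15) and Pprc1, a coactivator, at -0.56 (SE 0.21).

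The products that the mitochondrial ribosome makes were measured as messages only. All 13 mitochondrially encoded mRNAs were above 0, with a median of 0.23, and 6 of 13 were above 0 without Metformin 3, with a median of -0.025. The complex IV subunit mt-Co2 had 225, 250 and 305 CPM with metformin and 227, 199 and 205 CPM with PBS, a log2 fold change of 0.31 (SE 0.13). The small-subunit ribosomal RNA mt-Rnr1 had 34.1, 35.5 and 70.2 CPM with metformin and 36.0, 29.8 and 31.5 CPM with PBS. Metformin 3 was the highest library for both. In these lists 0 genes passed edgeR's adjusted p over all genes. At an unadjusted p under 0.05 4 were higher (Aurkaip1, Eral1, Slirp and mt-Co2) and 2 lower (Fastkd2 and Pprc1), against 5.29% and 5.08% of all genes. The 4 were 1 of 5 ribosome proteins with other names, 1 of 29 assembly factors, 1 of 16 genes listed under translation and 1 of 13 mRNAs. The 2 were 1 of 29 assembly factors and 1 of 10 biogenesis regulators.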

How the data were processed

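Messenger RNA of liver NK cells was measured in 6 libraries, 3 Metformin and 3 PBS, made with SMART-seq mRNA chemistry, per the labels' protocols. DRAGEN is named in the submitters' processing notes, beside both GRCm39 and mm10, without saying what each was for. The authors deposited, for each gene, an estimated count (not whole) and a TPM value per library, with a Gene Length and a position. The handling of strand and of shared reads was not given in the sources used here, and every value column was matched to a sample.

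After rounding to whole numbers, the estimated counts were tested with edgeR 4.0.16 in R 4.3.3 (glmQLFit and glmQLFTest, TMM, filterByExpr, no covariate), which left 15527 genes. Adjusted p-values are over all of these, at 0.05. The common biological coefficient of variation was 27.3%. CPM values use TMM-scaled library sizes. DESeq2 1.42.0, limma 3.58.1 (voom, and log2(TPM + 0.5) of the authors' TPM), other scalings and filters, offsets on length (lowess, span 0.3), a replicate block and each library left out were tried. The implied length is the deposited count over TPM, scaled per library on single-transcript genes. Of these, 77.3% to 84.1% per library lay within 10% of the line, which was refitted without the others. Within each group, every pair of libraries differed beyond counting noise (chi-square divided by its degrees of freedom, 15.1 to 65.2). Scripts were tested on simulated data.

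The members, lists, settings and the rule for named genes were chosen with earlier results of these data known. Named were the 8 members with the smallest p on each side, members fixed by role, the shortest, longest, highest and lowest members, the ribosome proteins with other names, and the gene with the smallest p on each side in every other list. Sequences are from RefSeq (GRCm38.p6) and GENCODE M21 (GRCm38), whose coordinates differ from those of the deposited table.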

Additional observations from a re-analysis of the deposited data

How the results depend on the processing

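The count of members past the adjusted p was 0 in every setting run except DESeq2, which called 1, and was 0 with each library left out. Members higher at an unadjusted p under 0.05 numbered 14 in edgeR with TMM (5.29% of all genes), 5 on log2(TPM + 0.5) (3.18%) and 9 with Gene Length offsets (4.72%). They numbered 2 with implied length offsets (5.04%), an alternative added after seeing the data, and 5 to 16 with each library left out. The counts were 10 without Metformin 1 (4.13%), 16 without Metformin 2 (5.49%) and 6 without Metformin 3 (4.9%). They were 8 without PBS 1 (4.52%), 6 without PBS 2 (3.19%) and 5 without PBS 3 (4.08%). Members above 0 numbered 44 on log2(TPM + 0.5), where 36.1% of all genes were above 0, and 38 with implied length offsets (50.2% of all genes). With each library left out they numbered 54 to 69 (49.3% to 51.2% of all genes). The large-subunit median was 0.032 on log2(TPM + 0.5), -0.0019 with implied length offsets and 0.043 to 0.21 with each library left out, and the small-subunit median was -0.014, -0.00041 and 0.056 to 0.20. On log2(TPM + 0.5) the median of all genes was -0.093, and the median of all members was 0.12 above it, against 0.15 above it in edgeR with TMM and -0.0026 with implied length offsets. After removal of the Gene Length trend the members' median ran from 0.0046 to 0.10 with each library left out. The causes were not tested.

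Single genes that changed sign follow, as log2 fold changes. Mrpl45 was -0.0044 in DESeq2 and with its size factors, -0.0064 in limma-voom, -0.015 with no filter, -0.14 on log2(TPM + 0.5), -0.029 with Gene Length offsets, -0.0068 with the replicate block and -0.075 to 0.12 with each library left out. On log2(TPM + 0.5), Mrpl49 was 0.25, Mrps36 -0.042, Mrps18b -0.037, Mrps30 -0.014 and Mrpl33 -0.0077. With upper quartile scaling Mrpl24 was 0.0042 and Mrpl3 0.015. With Gene Length offsets Mrpl3 was 0.045, Mrps36 -0.14, Mrps18b -0.068, Chchd1 -0.093, Dap3 0.029 and mt-Co2 -0.0051. With implied length offsets Mrps12 was -0.018, Mrpl58 -0.016, Mrps36 -0.12, Mrps18b -0.023, Mrpl17 -0.072, Mrpl33 -0.20, Chchd1 -0.077 and mt-Co2 -0.013. With each library left out Mrpl9 ran from -0.16 to 0.016, Mrpl24 from -0.11 to 0.022, Mrpl3 from -0.085 to 0.017 and Mrps36 from -0.031 to 0.29.

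The labels give both groups the same replicate numbers, but same-numbered libraries correlated at 0.171, 0.0757 and 0.172, so a pairing was not shown; every library except PBS 2 correlated best with its own number. With the replicate block 8 members were higher at an unadjusted p under 0.05 (4.87% of all genes), and the medians were 0.15 and 0.16. Depth limits Mrpl23 most, with 130.41 reads in its lowest library.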
